A study of Homo sapiens with 15 samples.

Results

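The genes described here are 9 components of the basement membrane that were chosen by symbol in the gene count table: perlecan (HSPG2), agrin (AGRN), the nidogens NID1 and NID2, and the laminin chains LAMA4, LAMA5, LAMB1, LAMB2 and LAMC1. They are 9 of the 37787 genes in that table, and all 9 were among the 13868 genes that passed the filter on low counts. RNA was sequenced from HGrC1 cells, an immortalized human granulosa cell line, in 5 conditions of 3 libraries each, lettered A, B and C. Control cells received empty plasmids (Vectors). The FOXL2WT condition received plasmids for SMAD3 and wild-type FOXL2, and the FOXL2C134W condition received SMAD3 with the FOXL2 mutant that is characteristic of adult granulosa cell tumors. In FOXL2WT + FOXO1 and FOXL2C134W + FOXO1 the same pairs were joined by FOXO1-3A, a constitutively active form of FOXO1. SMAD3 was therefore given in every condition except Vectors. All cells were at the same passage and came from 1 line, the transfection lasted 4 h, and RNA was taken after a further 24 h without serum.

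Basement membranes are thin sheets of extracellular matrix on which epithelial cells rest. Laminins, trimers of an alpha, a beta and a gamma chain, form one network at the cell surface, type IV collagen forms another, and nidogens and the heparan sulfate proteoglycans perlecan and agrin tie the networks together and hold growth factors. In the ovarian follicle a basement membrane surrounds the granulosa cell layer and separates it from the theca and its vessels, and granulosa cells themselves make much of it. Perlecan and the alpha-5 laminin chain are large proteins encoded by long transcripts.

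The genes are spread over the genome (GRCh38, whole gene from GENCODE 44). HSPG2 lies at chr1:21822244-21937310 (minus strand), AGRN at chr1:1020120-1056118 (plus), NID1 at chr1:235975830-236065109 (minus) and LAMC1 at chr1:183023420-183145592 (plus). NID2 lies at chr14:52004809-52069059, LAMA4 at chr6:112107931-112254939, LAMA5 at chr20:62307955-62367312, LAMB1 at chr7:107923799-108003213 and LAMB2 at chr3:49121114-49133118, all on the minus strand. NID2, LAMA5 and LAMB1 overlap an expressed gene on the opposite strand (RTRAF, ADRM1 and DLD). The kit keeps the strand, but the strand setting of the counting is not given in the sources used here, so that these 3 genes carry that uncertainty.

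Totals ran from 14962245 to 25339094 estimated counts per library. FOXL2 averaged 8.73 ± 0.704 CPM (counts scaled to a common library total with TMM; SD, n = 3) in Vectors, 561 ± 5.89 in FOXL2WT and 147 ± 27.0 in FOXL2C134W. SMAD3 averaged 249 ± 11.99 CPM in Vectors, 2768 ± 154 in FOXL2WT and 843 ± 37.4 in FOXL2C134W. Gene counts do not separate plasmid-borne from endogenous RNA. Transcripts of both transfected genes were lower with the mutant than with wild-type FOXL2. Protein levels were not analysed here, and the mutation and this difference in transcript level cannot be told apart in the comparisons below. With FOXO1-3A, SMAD3 was at 969 ± 10.8 CPM (FOXL2WT + FOXO1) and 392 ± 16.9 CPM (FOXL2C134W + FOXO1). The granulosa transcription factors GATA4, NR5A1 and WT1 were present in every library, whereas FSHR was listed at 0 and CYP19A1 and INHA stood at 4 counts or fewer. Theca markers reached 3 counts at most, and the 4 endothelial markers summed to between 13.1 and 22.5 CPM, highest in Vectors (19.2 to 22.5). FOXL2C134W replicate A stood apart from replicates B and C of its condition (chi-square per gene of 7.44 and 8.39, against 2.54 between B and C), and FOXL2WT + FOXO1 replicate A likewise (6.34 and 6.36, against 2.77). Replicates B and C of FOXL2C134W + FOXO1 differed by 6.88, and the other pairs by 2.20 to 4.81. Values of HSPG2 and LAMA5 without some of these libraries, or their ranges with 1 library left out, are given with the results that use them. Nothing in the labels says whether the 3 libraries of a condition came from separate cultures or days, so that p-values measure the spread between these libraries, which may be technical.

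The upstream sequences of 3 members are shown first, because HSPG2 and LAMA5 had the largest fold changes of the 9 between FOXL2C134W and FOXL2WT, while LAMC1 did not pass the test there. Each run is the 250 bases before the RefSeq start, 5′ to 3′ on the strand of the gene (GRCh38.p14), at chr1:21937311-21937560 (minus strand) for HSPG2, chr20:62367313-62367562 (minus strand) for LAMA5 and chr1:183023170-183023419 (plus strand) for LAMC1. Capitals mark the SMAD box CAGAC on either strand.
HSPG2: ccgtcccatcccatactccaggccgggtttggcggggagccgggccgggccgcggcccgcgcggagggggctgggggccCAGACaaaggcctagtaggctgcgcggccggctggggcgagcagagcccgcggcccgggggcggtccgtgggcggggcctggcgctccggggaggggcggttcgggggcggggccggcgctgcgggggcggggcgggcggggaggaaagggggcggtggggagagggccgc
LAMA5: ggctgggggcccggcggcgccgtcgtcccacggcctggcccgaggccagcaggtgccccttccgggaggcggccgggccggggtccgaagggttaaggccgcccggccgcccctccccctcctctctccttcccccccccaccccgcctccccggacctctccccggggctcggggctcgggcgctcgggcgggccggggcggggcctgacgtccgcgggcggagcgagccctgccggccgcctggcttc
LAMC1: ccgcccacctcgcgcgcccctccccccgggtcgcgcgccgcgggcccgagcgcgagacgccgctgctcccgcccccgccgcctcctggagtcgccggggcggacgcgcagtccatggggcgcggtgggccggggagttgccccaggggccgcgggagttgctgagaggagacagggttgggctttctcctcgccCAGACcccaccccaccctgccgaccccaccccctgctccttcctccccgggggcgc

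The bases G and C made up 82.8% of the window of HSPG2, 82.8% of that of LAMA5 and 79.6% of that of LAMC1. A SMAD box (CAGAC or its complement GTCTG) was found in 4 of the 8 members with an entry in the promoter table (HSPG2, LAMA4, LAMB2 and LAMC1), and in 13345 of all 35116 promoters (38.003%). It began 171 bases before the start in HSPG2 and 56 bases before it in LAMC1. The forkhead motif GTAAACA (or TGTTTAC) was in 0 of the 8 windows and in 2.98% of all promoters. Both strands were searched, the letters of the motifs do not overlap with each other, and a match is a description of the window, not of a binding site. AGRN had no entry in the table.

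Per unit of transcript length the laminin chains LAMB1 and LAMC1 and the proteoglycan agrin were the most abundant members, and NID2 was the least. In Vectors, TPM (transcript abundance per unit length, scaled to the same total in each library) averaged 143 ± 2.45 for LAMB1 (SD, n = 3), 119 ± 4.01 for LAMC1 and 114 ± 7.10 for AGRN, and the ranges of the last pair overlapped. NID1 followed with 55.6 ± 4.59 TPM. HSPG2 (30.5 ± 3.47 TPM) overlapped with both LAMB2 (35.3 ± 4.87 TPM) and LAMA5 (27.4 ± 4.33 TPM), while every LAMB2 library was above every LAMA5 library, and LAMA4 (14.7 ± 0.830 TPM) and NID2 (2.55 ± 0.722 TPM) lay below them without overlap. The first 4 ranks and the last 2 were the same in all 5 conditions. HSPG2 was at 18.6 ± 3.68 TPM and LAMA5 at 28.0 ± 6.05 TPM in FOXL2WT, where their libraries did not overlap, and at 40.2 ± 8.35 and 41.2 ± 9.56 TPM in FOXL2C134W, where they did.

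**Figure D1:**
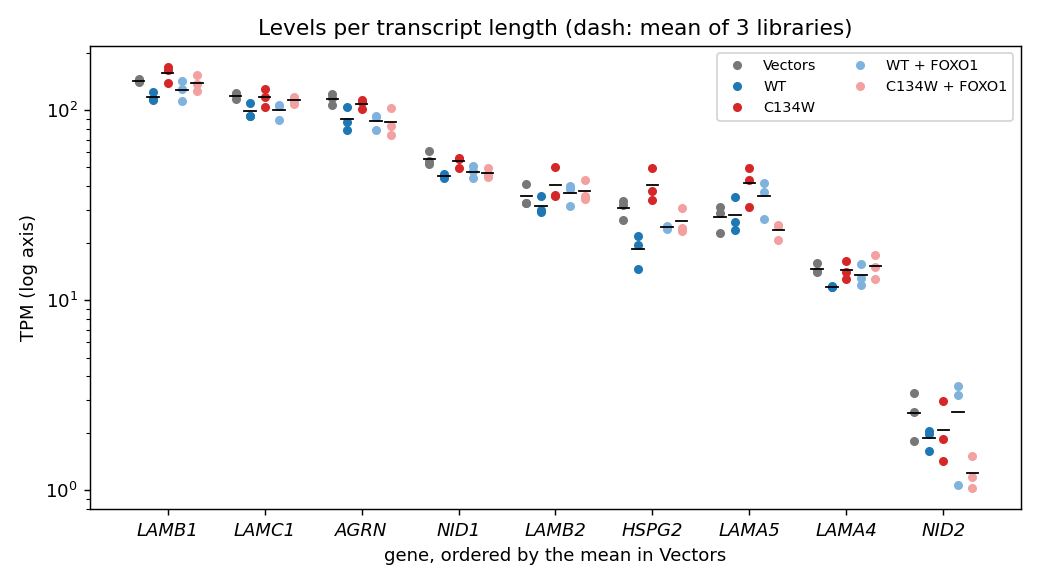
TPM (log axis) of the 9 genes in 15 libraries, ordered by their mean in Vectors; points are libraries colored by condition and dashes are means of 3. LAMB1, LAMC1 and AGRN are the upper 3 genes and NID2 is the lowest, between 1.03 and 3.54 TPM.

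These transcript levels can be set out as shares of each class of laminin chain, and the composition of laminin protein was not measured. Among the alpha chains LAMA5 held 55.1% ± 5.11 of the TPM and LAMA4 29.8% ± 2.37 in Vectors, with LAMA1 at 9.39% ± 1.34. LAMB1 held 77.3% ± 2.09 of the beta chains and LAMC1 84.5% ± 0.835 of the gamma chains. By TPM the leading chain of each class was thus LAMA5, LAMB1 or LAMC1, which together form a laminin found in many basement membranes. These shares depend on the split of reads between transcripts that is described below. The share of LAMA4 was 22.5% ± 1.51 in FOXL2C134W and 32.9% ± 1.42 in FOXL2C134W + FOXO1, and the 3 libraries of these conditions did not overlap. By gene counts LAMA4 itself differed little between them (log2 fold change with FOXO1 -0.07 ± 0.08, SE), while LAMA5 was lower with FOXO1 (-0.46 ± 0.08). The shares of LAMB1 (75.0% to 77.5%) and LAMC1 (83.0% to 84.5%) stayed within narrow ranges of condition means.

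The per-length levels rest on the split of reads between transcripts. The main HSPG2 transcript HSPG2-203 (14341 bases) took between 97.2% and 99.8% of the reads of the gene but 66.0% ± 4.02 of its TPM in Vectors, the rest of which came from transcripts with few reads. For LAMA5, LAMA5-201 (11426 bases) held 90.5% to 94.4% of reads and 49.9% ± 6.92 of TPM in Vectors. LAMA4 was the member with the least settled transcript, as LAMA4-207 held between 23.1% and 55.3% of its reads. Comparisons between conditions below use the gene counts, which do not depend on this split.

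The question behind the comparison of FOXL2C134W with FOXL2WT was which genes the tumor mutant changes relative to the normal factor. Of the 9 genes, 6 rose, 0 fell and 3 did not pass the test (edgeR quasi-likelihood test, Benjamini-Hochberg adjusted p under 0.05 over all tested genes). The background was 11.2% of all tested genes called in either direction and 7.13% called higher. HSPG2 (85.9% higher) and LAMA5 (55.3% higher) had the largest changes of the 9, LAMA4 rose by 30.8%, and AGRN, NID1 and LAMB1 rose by 15.6% to 16.2%. The median log2 fold change of the 9 was 0.21 against -0.01 over all tested genes.

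Perlecan, the large heparan sulfate proteoglycan of the matrix, was at 178, 171 and 166 CPM in the FOXL2WT libraries A, B and C, and at 276, 360.4 and 321 CPM in FOXL2C134W. Every FOXL2C134W library was above every FOXL2WT library, and Vectors lay between them at 263, 231 and 246 CPM. The HSPG2 log2 fold change was 0.89 ± 0.10 (SE; 95% confidence interval 0.68 to 1.11), or 85.9% higher, with an adjusted p of 2.45e-05. Without FOXL2C134W replicate A it was 1.00, and it was called in 6 of 6 fits that left out a library and in 11 of 11 other fits.

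Agrin, the second proteoglycan and an organizer of the neuromuscular junction, stood at 473, 437 and 481 CPM in FOXL2WT and at 549, 526 and 533 CPM in FOXL2C134W, without overlap. The difference was small, with a log2 fold change of 0.21 ± 0.06 (adjusted p = 0.0239). It was 0.20 without FOXL2C134W replicate A, and AGRN lost its call in 4 of 6 fits that left out a library (those without FOXL2WT A, FOXL2WT B, FOXL2C134W B or FOXL2C134W C, adjusted p up to 0.123).

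Nidogen 1, which links laminin to type IV collagen, was at 217, 206 and 211 CPM in FOXL2WT and at 231, 248 and 256 CPM in FOXL2C134W. These values do not overlap either, and the log2 fold change of NID1 was 0.21 ± 0.05 (adjusted p = 0.00898). The NID1 value was 0.26 without FOXL2C134W replicate A, and without replicate C its adjusted p was 0.0570. NID2, its lowly expressed relative, had between 64 and 164 counts per library, and its libraries overlapped (4.69, 4.56 and 5.39 CPM against 5.38, 5.31 and 5.07 CPM). The interval of the NID2 log2 fold change ran from -0.21 to 0.41, so that a change of the size seen for LAMA4 could not be told from none at this depth.

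Among the laminin alpha chains, which carry the main cell-binding sites, LAMA5 was at 117, 106 and 110.2 CPM in FOXL2WT and at 158, 181 and 179 CPM in FOXL2C134W. All 3 FOXL2C134W libraries exceeded all 3 of FOXL2WT and also those of Vectors (146, 132 and 134.2 CPM). The LAMA5 log2 fold change was 0.64 ± 0.08 (95% confidence interval 0.46 to 0.81; adjusted p = 0.000114). Without FOXL2C134W replicate A it was 0.70.

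LAMA4, the alpha chain of vessels and muscle, was at 33.3, 30.9 and 37.1 CPM in FOXL2WT and at 39.0, 44.8 and 49.8 CPM in FOXL2C134W. The groups did not overlap, although replicate A of FOXL2C134W lay close to FOXL2WT replicate C. The LAMA4 log2 fold change was 0.39 ± 0.09 (adjusted p = 0.00699), and 0.48 without FOXL2C134W replicate A. The summed endothelial markers ran from 14.0 to 17.95 CPM in FOXL2WT and from 13.1 to 16.2 CPM in FOXL2C134W, and from 19.2 to 22.5 CPM in Vectors, where LAMA4 was at 48.7, 45.9 and 43.9 CPM. They were thus lower together with LAMA4 in FOXL2WT than in Vectors, but not higher with it in FOXL2C134W than in FOXL2WT, and their part in the LAMA4 levels was not tested.

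The beta chain LAMB1 was at 387, 354 and 371 CPM in FOXL2WT and at 388, 441 and 464 CPM in FOXL2C134W. Replicate A of FOXL2C134W exceeded FOXL2WT replicate A by little, and the other 2 libraries lay clearly above. The LAMB1 log2 fold change was 0.22 ± 0.06 (adjusted p = 0.0273) and 0.29 without FOXL2C134W replicate A, while 4 of 6 fits that left out a library, those without FOXL2WT B, FOXL2WT C, FOXL2C134W B or FOXL2C134W C, did not call it. The beta chain LAMB2 (105 to 118 CPM against 117 to 120.5 CPM) and the gamma chain LAMC1 (451 to 474 CPM against 472 to 519.8 CPM) overlapped between the groups. Their log2 fold changes were 0.11 ± 0.05 for LAMB2 (adjusted p = 0.223) and 0.11 ± 0.04 for LAMC1 (adjusted p = 0.115, and 0.0249 without FOXL2C134W replicate A).

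These are levels in whole cultures, in which fewer expressing cells and less RNA per cell cannot be told apart. In all, 6 of the 9 genes had every FOXL2C134W library above every FOXL2WT library, while 14.8% of all tested genes did so.

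**Figure D2:**
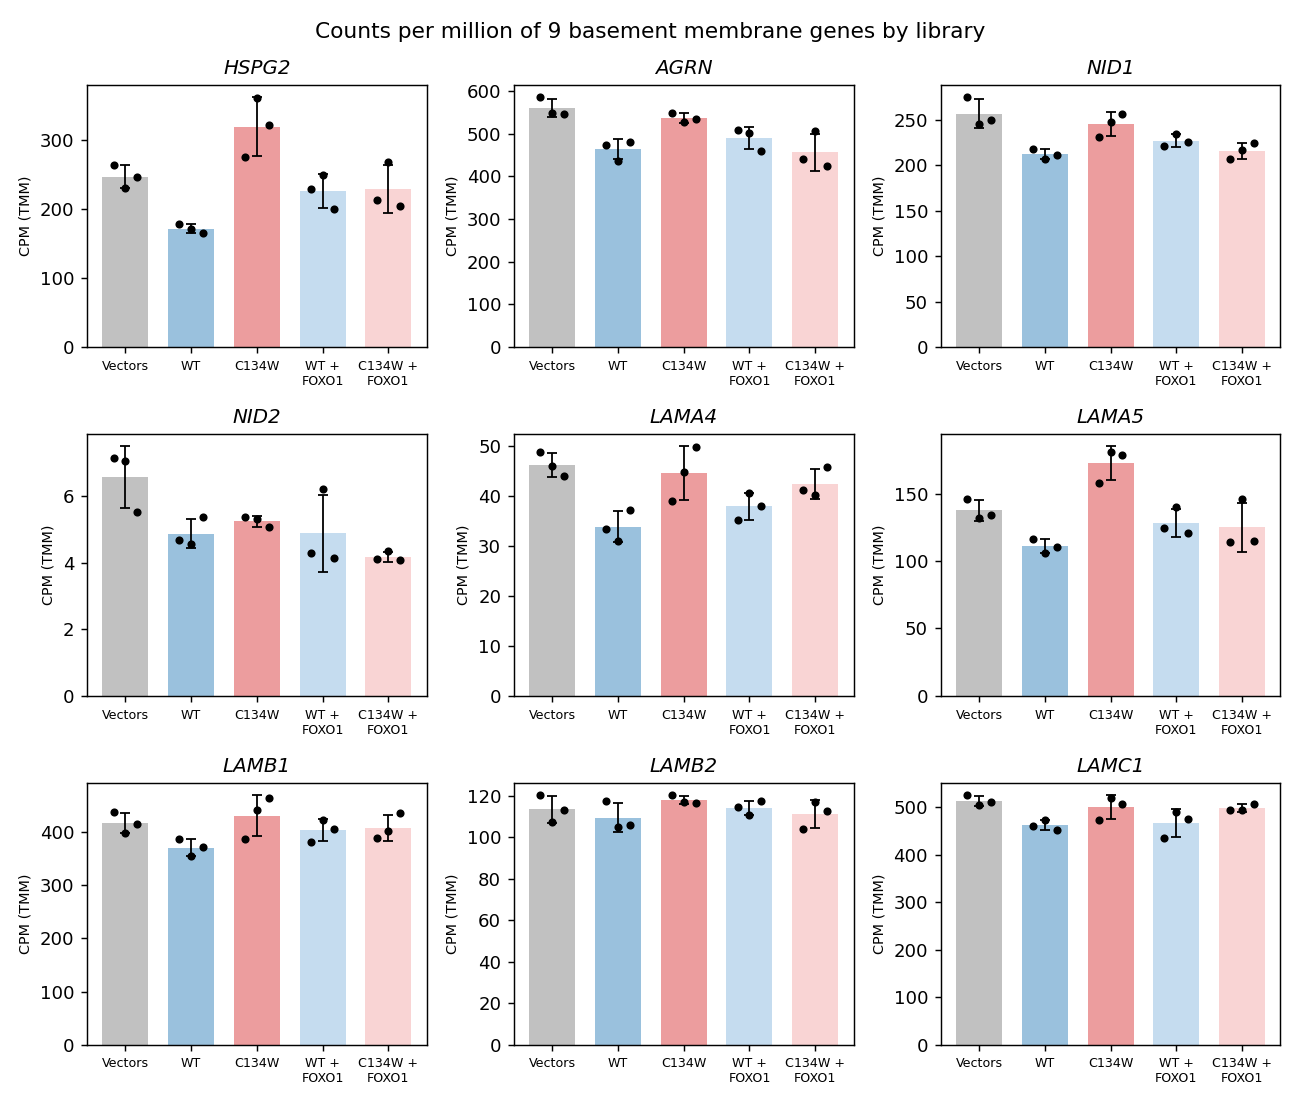
CPM (TMM scaled, axes from 0) of the 9 genes by condition; points are the libraries A, B and C, bars their mean and error bars the SD. In the HSPG2 and LAMA5 panels FOXL2C134W is the tallest bar (319 and 172 CPM) and FOXL2WT the shortest (172 and 111 CPM), while the LAMB2 bars differ little (109.6 to 118 CPM).

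The comparisons with Vectors set each form of FOXL2, given together with SMAD3, against the control. The parts of FOXL2 and SMAD3 cannot be told apart in them. In FOXL2WT against Vectors, 5 of the 9 genes fell and 0 rose, against 6.07% of all tested genes called in either direction and 3.61% called lower. HSPG2 fell by 0.52 on the log2 scale (SE 0.10, adjusted p = 0.00407), LAMA4 fell by 0.44 (SE 0.09, adjusted p = 0.00459), LAMA5 fell by 0.31 (SE 0.08, adjusted p = 0.0350), NID1 fell by 0.28 (SE 0.05, adjusted p = 0.00207) and AGRN fell by 0.27 (SE 0.06, adjusted p = 0.00826). All but LAMB2 (8 of 9) had every FOXL2WT library below every Vectors library, as did 15.9% of all tested genes. The log2 fold change of LAMC1 was -0.15 ± 0.04 with an adjusted p of 0.0514. It was called in 11 of 11 other fits of all libraries or of those compared, and in 0 of 6 fits that left out a library (adjusted p up to 0.217). For LAMA5, 0 of 6 fits that left out a library kept the call, and it turned to 0.05 with transcript length offsets in DESeq2. AGRN lost its call without Vectors replicate A or FOXL2WT replicate B (adjusted p up to 0.0671), with the gene length offset (adjusted p = 0.0521) and with transcript length offsets (adjusted p = 0.118). LAMA4 lost it with transcript length offsets (log2 fold change -0.30, adjusted p = 0.170).

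In FOXL2C134W against Vectors, HSPG2 and LAMA5 rose and the other 7 members did not pass the test. Of all tested genes, 14.7% were called in either direction and 7.48% higher. The log2 fold change was 0.37 ± 0.10 for HSPG2 (29.2% higher, adjusted p = 0.0155) and 0.33 ± 0.08 for LAMA5 (25.4% higher, adjusted p = 0.0106). Leaving out Vectors replicate B or FOXL2C134W replicate B removed both calls (HSPG2 also without Vectors replicate C), with adjusted p up to 0.0989 for HSPG2 and 0.0535 for LAMA5. Without FOXL2C134W replicate A these values were 0.47 for HSPG2 and 0.39 for LAMA5. NID2 was at 7.15, 7.07 and 5.52 CPM in Vectors and at 5.38, 5.31 and 5.07 CPM in FOXL2C134W. Every FOXL2C134W library was lower, and the interval of the NID2 log2 fold change was -0.61 to -0.03 (adjusted p = 0.141). The intervals of AGRN (-0.18 to 0.06), NID1 (-0.17 to 0.03), LAMA4 (-0.23 to 0.12), LAMB1 (-0.08 to 0.17), LAMB2 (-0.06 to 0.17) and LAMC1 (-0.13 to 0.05) included 0. The 3 comparisons among Vectors, FOXL2WT and FOXL2C134W share libraries in pairs, so that they are not independent of each other.

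Adding FOXO1-3A to FOXL2C134W was meant to show whether FOXO1 counters the mutant. HSPG2 was at 276, 360.4 and 321 CPM without and at 213, 268 and 205 CPM with FOXO1. LAMA5 was at 158, 181 and 179 CPM without and at 114, 146 and 115 CPM with it. Both groups were separate for both genes, and replicate B was the highest of the 3 in either arm. HSPG2 fell by 0.48 (SE 0.10, 95% confidence interval -0.69 to -0.27, adjusted p = 0.0270) and LAMA5 fell by 0.46 (SE 0.08, 95% confidence interval -0.64 to -0.29, adjusted p = 0.0146). Of all tested genes, 0.714% were called in this comparison and 0.707% called lower. Both calls were lost in 4 of 6 fits that left out a library, namely FOXL2C134W B, FOXL2C134W C, FOXL2C134W + FOXO1 A or FOXL2C134W + FOXO1 C, with adjusted p up to 0.222 for HSPG2 and 0.143 for LAMA5. Without FOXL2C134W replicate A the log2 fold changes were -0.58 for HSPG2 and -0.53 for LAMA5, and without FOXL2C134W + FOXO1 replicate B they were -0.62 and -0.60. NID1 came to be called without FOXL2C134W replicate A (-0.23, adjusted p = 0.0172). A fit of the 2 conditions alone gave adjusted p = 0.0961 for HSPG2 and 0.0605 for LAMA5.

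The other 7 members did not pass the test after FOXO1. AGRN stood at 549, 526 and 533 CPM without and 439.7, 506 and 424 CPM with FOXO1 (log2 fold change -0.23 ± 0.06, adjusted p = 0.0668). NID1 was at 231, 248 and 256 CPM without and 207, 216 and 224 CPM with FOXO1 (log2 fold change -0.18 ± 0.05, adjusted p = 0.0892). Neither gene overlapped between the conditions, and with HSPG2, LAMA5 and NID2 this made 5 of 9 members with every library lower, against 7.72% of all tested genes. LAMC1 was at 472, 519.8 and 506 CPM without and 494, 493 and 507 CPM with FOXO1, and the interval of its log2 fold change (-0.10 to 0.09) covered 0.

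With wild-type FOXL2 the log2 fold changes of HSPG2 and LAMA5 after FOXO1 were positive instead, but no member passed the test (0 of 9, with 0.0505% of all tested genes called). Those of NID2 (0.01 ± 0.15) and LAMC1 (0.01 ± 0.04) were close to 0. The edgeR test gave an unadjusted p under 0.05 for 2 members, and DESeq2 called 0. HSPG2 was at 178, 171 and 166 CPM in FOXL2WT and at 228, 249.5 and 199.8 CPM in FOXL2WT + FOXO1. The groups did not overlap, and the log2 fold change was 0.40 ± 0.10 (adjusted p = 0.198). LAMA5 was at 117, 106 and 110.2 CPM without and at 124, 140.2 and 121 CPM with FOXO1 (log2 fold change 0.21 ± 0.08, adjusted p = 0.489). Without FOXL2WT + FOXO1 replicate A the log2 fold changes were 0.39 for HSPG2 and 0.23 for LAMA5. With a fit of only these 2 conditions HSPG2 was called (adjusted p = 0.0271).

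The difference between these effects, which is the interaction of FOXO1 with the form of FOXL2, passed the test for 3 members, all negative, against 1.38% of all tested genes called and 1.25% called lower. It was -0.88 ± 0.14 for HSPG2 (95% confidence interval -1.17 to -0.58, adjusted p = 0.00650) and -0.68 ± 0.12 for LAMA5 (95% confidence interval -0.92 to -0.43, adjusted p = 0.00957). For NID1 it was -0.28 ± 0.07 with an adjusted p of 0.04996, and 9 of 12 fits that left out a library did not call it (adjusted p up to 0.163). For HSPG2 and LAMA5 12 of 12 such fits and 11 of 11 other fits kept the call. Without FOXL2C134W replicate A the values were -0.98 and -0.74, and without FOXL2WT + FOXO1 replicate A they were -0.88 and -0.70. AGRN was at -0.31 ± 0.08 (adjusted p = 0.0670), NID2 at -0.34 ± 0.21 (adjusted p = 0.570) and LAMC1 was at -0.02 ± 0.06. In the conditions with FOXO1-3A the transcripts of SMAD3 and, with wild-type FOXL2, of FOXL2 (561 ± 5.89 against 384 ± 14.97 CPM) were also lower, FOXO1 itself was at 117 ± 14.5 CPM with FOXL2WT and 43.2 ± 4.06 CPM with FOXL2C134W, and the part of these levels in the interaction was not tested.

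**Figure D3:**
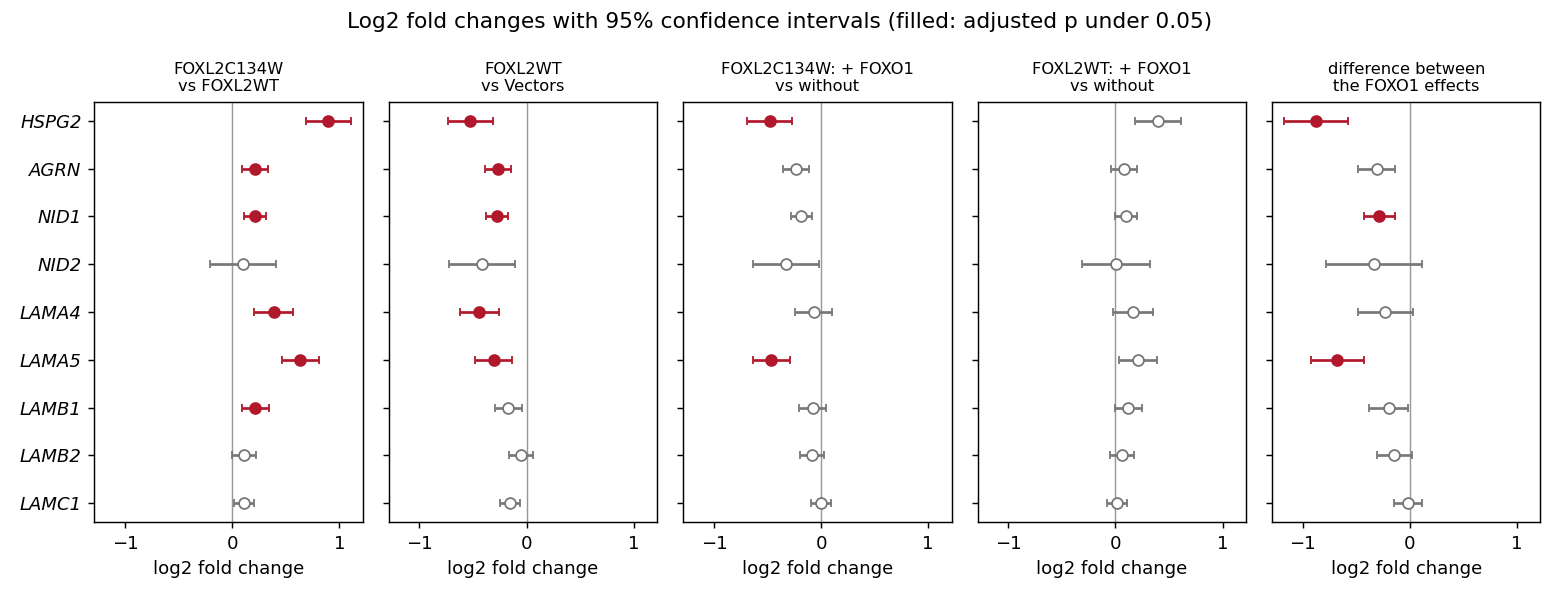
Log2 fold changes (points) with 95% confidence intervals (bars) of the 9 genes in 5 contrasts, filled where the adjusted p was under 0.05. HSPG2 and LAMA5 lie right of 0 for FOXL2C134W against FOXL2WT (0.89 and 0.64) and left of it for the difference between the FOXO1 effects (-0.88 and -0.68), and LAMC1 lies near 0 in the 3 FOXO1 panels.

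Once FOXO1 was present, the form of FOXL2 made no detectable difference to any member. No member was called between FOXL2C134W + FOXO1 and FOXL2WT + FOXO1 (0 of 9, with 0.144% of all tested genes called). The edgeR test gave an unadjusted p under 0.05 for 1 member, LAMC1, and DESeq2 called 0. HSPG2 was at 228, 249.5 and 199.8 CPM with wild-type FOXL2 and at 213, 268 and 205 CPM with the mutant, with a log2 fold change of 0.02 (95% confidence interval -0.19 to 0.23). The LAMA5 interval was -0.21 to 0.14. In this fit the intervals do not reach the differences without FOXO1 (0.89 and 0.64). With 1 library left out, the values ran from -0.11 to 0.10 for HSPG2 and from -0.17 to 0.03 for LAMA5. With transcript length offsets in DESeq2 the LAMA5 value was -0.63 ± 0.20 (adjusted p = 0.132), far from that of edgeR. The missed threshold does not show that the levels were equal.

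HSPG2 and LAMA5 share properties that the choice of genes did not use. Both are long (10224 and 5315 bases, weighted by TPM) and rich in G and C (64.5% and 65.5%), as are AGRN (6236 bases, 67.0%) and LAMB2 (3887 bases, 59.6%). The GC contents of NID1, NID2, LAMA4, LAMB1 and LAMC1 lie between 48.3% and 51.4%. By these weighted lengths NID1 (5670 bases) and LAMC1 (5437 bases) are longer than LAMA5 and LAMB2. Among the members the GC content thus sets HSPG2, LAMA5, AGRN and LAMB2 apart, and the weighted length does not. By the length of the main transcript, however, HSPG2 (14341 bases) and LAMA5 (11426 bases) were the longest members. LAMC1 (7929 bases) and AGRN (7326 bases) came next. Whether length sets HSPG2 and LAMA5 apart therefore depends on which length is used. The classes that follow use the weighted lengths. Of the 3757 tested genes at least as long as NID2 (3154 bases), 17.9% were called higher in FOXL2C134W than in FOXL2WT (median log2 fold change 0.08). Of the 2499 tested genes with a GC content of at least 59%, 9.96% were called higher (median 0.0006), against 7.13% of all tested genes. Of the 431 genes with both properties, 35.0% were called higher and the median log2 fold change was 0.19. Among 2667 genes of that length with a GC content under 52%, these were 12.8% and 0.06. In the former set 14.2% of genes were called lower in the interaction, against 0.525% in the latter. The log2 fold changes of HSPG2 (0.89) and LAMA5 (0.64) were above the median of the former set, that of AGRN (0.21) was close to it and that of LAMB2 (0.11) was below it.

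An offset for gene length, which removes the trend of counts with length in each library, left HSPG2 at 0.66 ± 0.08 and LAMA5 at 0.52 ± 0.07 in FOXL2C134W against FOXL2WT, both called. LAMA4 (0.33 ± 0.07) and LAMB1 (0.16 ± 0.05) also kept their calls. AGRN went to 0.07 (adjusted p = 0.579) and NID1 to 0.08 (adjusted p = 0.146), and neither was called. In FOXL2C134W against Vectors, HSPG2 went to 0.21 (adjusted p = 0.0742), while NID1 (-0.15, adjusted p = 0.00650) and LAMC1 (-0.11, adjusted p = 0.00853) came to be called lower. An offset for GC content changed none of the 6 calls of FOXL2C134W against FOXL2WT (HSPG2 at 0.90 ± 0.10, LAMA5 at 0.64 ± 0.09). It took HSPG2 from the calls after FOXO1 in FOXL2C134W (log2 fold change -0.44, adjusted p = 0.0703). DESeq2 with transcript length offsets called HSPG2 (1.08 ± 0.16), LAMB1 (0.39 ± 0.09) and NID1 (0.22 ± 0.06) but not LAMA5 (0.52 ± 0.20), AGRN (0.24 ± 0.12) or LAMA4 (0.26 ± 0.12). Standard errors were larger than in edgeR both for the genes that kept their call and for those that lost it. The share of counts from 13 transcripts of the mitochondrial genome ran from 0.220% to 0.230% in Vectors, 0.229% to 0.258% in FOXL2WT, 0.270% to 0.319% in FOXL2C134W, 0.220% to 0.252% in FOXL2WT + FOXO1 and 0.222% to 0.248% in FOXL2C134W + FOXO1. It was highest in FOXL2C134W, as HSPG2 was, but not lower in FOXL2WT than in Vectors, and its part in these results was not tested.

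**Figure D4:**
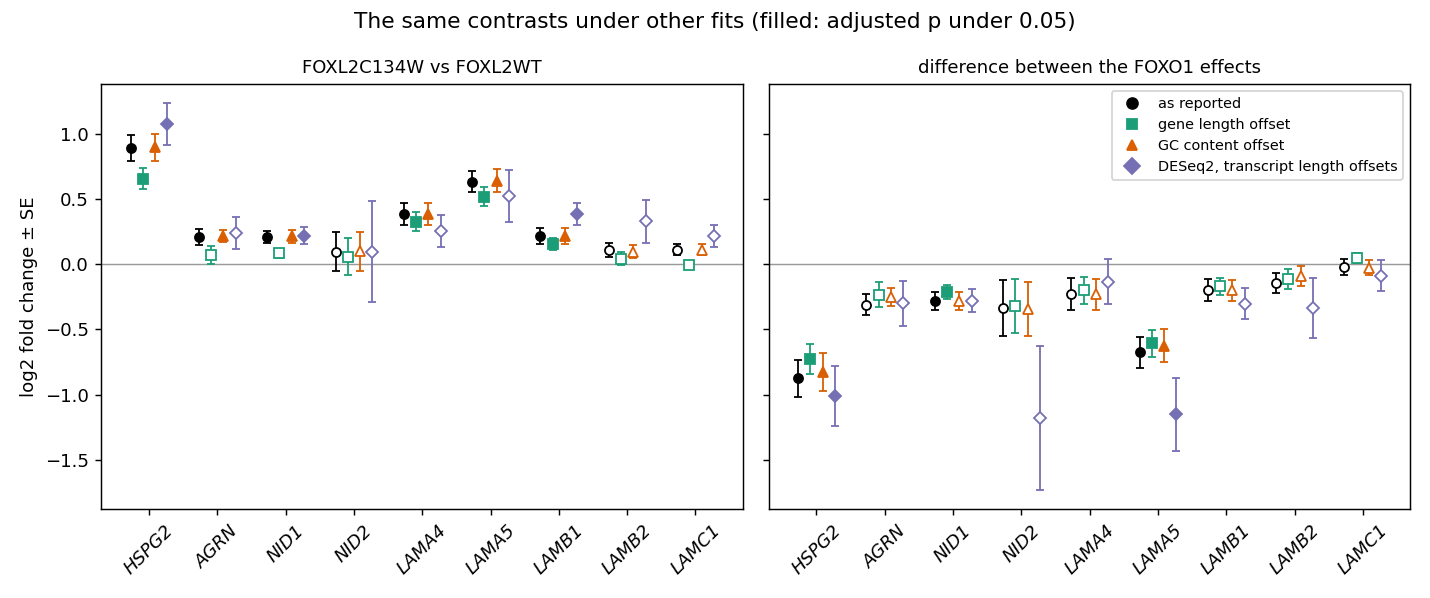
Log2 fold changes ± SE of the 9 genes as reported and under 3 other fits, for FOXL2C134W against FOXL2WT (left) and the difference between the FOXO1 effects (right), filled where the adjusted p was under 0.05. HSPG2 is filled under all 4 fits in both panels (0.66 to 1.08 on the left), and AGRN and NID1 drop to 0.07 and 0.08 with the gene length offset.

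The 5 genes with profiles nearest to that of HSPG2 over the 15 libraries were LRP1, NAV2, PRR12, PLEC and DOT1L, with root mean square differences of centered log2-CPM between 0.0762 and 0.103. LAMA5 was the 6th (0.106), and LAMA4, the next member, was at rank 473. LRP1 encodes an endocytic receptor, PLEC the linker protein plectin and DOT1L a histone methyltransferase, so that none of these is a basement membrane component. All were long, from 4931 bases (DOT1L) to 12526 bases (PLEC), with a GC content of 53.1% (NAV2) to 66.7% (PRR12). Profiles of different genes come from the same libraries and share their depth and base composition.

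The partners of these proteins were followed in 5 lists of 59 genes, of which 47 were tested. In FOXL2C134W against FOXL2WT 6 partners rose and 1 fell, against 11.2% of all tested genes called, and the median of the 47 was 0.05. Of the 6 basement membrane collagens tested, 3 rose. COL18A1, the source of endostatin, was at 121 ± 15.2 CPM in FOXL2WT and 166 ± 3.53 CPM in FOXL2C134W (log2 fold change 0.45 ± 0.08, adjusted p = 0.00137). COL4A1, a chain of the main type IV collagen, rose from 2448 ± 87.6 to 2892 ± 109 CPM (log2 fold change 0.24 ± 0.04, adjusted p = 0.000674). COL4A2, the chain it pairs with, rose by 0.43 ± 0.05 on the log2 scale (adjusted p = 2.28e-05).

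Of the 6 other laminin chains tested, LAMC3 rose (17.6 ± 1.496 to 23.7 ± 1.55 CPM, log2 fold change 0.43 ± 0.10, adjusted p = 0.00744), and 5 did not pass. Of 8 other basement membrane proteins tested, SPARC, a collagen-binding glycoprotein, fell by 0.13 (SE 0.03, adjusted p = 0.00880), from 2041 ± 13.8 to 1861 ± 56.9 CPM, and 0 rose. Of 12 receptors tested, only BCAM, a receptor of laminin alpha-5, passed, at 30.9 ± 2.13 and 39.1 ± 1.72 CPM (log2 fold change 0.33 ± 0.07, adjusted p = 0.00611). Of 15 enzymes that build or edit heparan sulfate chains, only NDST1, an N-deacetylase and N-sulfotransferase, passed, at 133.7 ± 3.33 and 156 ± 7.41 CPM (log2 fold change 0.22 ± 0.05, adjusted p = 0.00470). The 12 partners that were not tested had at most 10 counts in any library, and PXDN was listed at 0 in all.

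In FOXL2WT against Vectors 12 of 47 partners fell and 0 rose, among them 4 of 6 collagens and 5 of 12 receptors, against 3.61% of all tested genes called lower. In FOXL2C134W against Vectors 5 rose and 8 fell, where 14.7% of all tested genes were called. With FOXO1 added to FOXL2C134W, where 0.707% of all tested genes were called lower, 2 partners fell, COL4A2 (2118 ± 68.5 to 1784 ± 97.3 CPM, fell by 0.25, SE 0.05, adjusted p = 0.0207) and COL18A1 (166 ± 3.53 to 129 ± 14.8 CPM, fell by 0.36, SE 0.08, adjusted p = 0.0394). With FOXO1 added to FOXL2WT, and between the 2 conditions with FOXO1, 0 of 47 partners were called (edgeR unadjusted p under 0.05 for 4 and 9 of them). The interaction, called for 1.38% of all tested genes, was called for COL4A2 (-0.37 ± 0.07, adjusted p = 0.0109) and NDST1 (-0.29 ± 0.07, adjusted p = 0.0373).

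**Figure D5:**
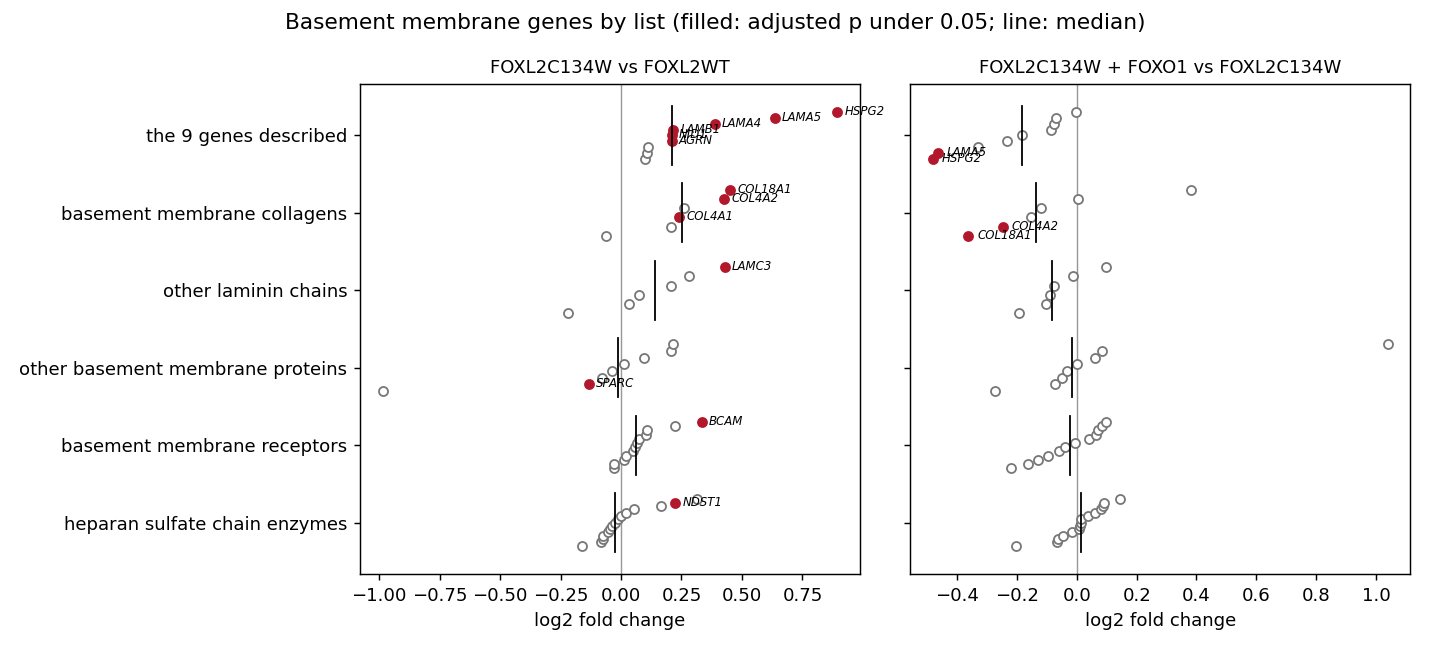
Log2 fold changes of the 9 genes and of 47 tested partners in 5 lists, for FOXL2C134W against FOXL2WT (left) and FOXL2C134W + FOXO1 against FOXL2C134W (right); filled points passed an adjusted p of 0.05 and carry their name, and lines are medians. The filled points on the right are HSPG2, LAMA5, COL4A2 and COL18A1, all below 0.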

How the data were processed

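The authors quantified single-end reads on hg38 transcripts with Salmon 1.1.0 and deposited estimated counts summed to genes and rounded to whole numbers, without normalization, with GENCODE identifiers. The annotation release is not given in the sources used here. The deposited transcript files also hold TPM, estimated counts and lengths, which were summed by gene. Of the series' columns, 0 were left unmapped. Transcript lengths were those deposited by the authors. GC content and gene positions were taken from GENCODE 44 (GRCh38), which held 98.4% of transcripts, and promoters from RefSeq.

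Estimated counts of all 15 libraries were fitted together with edgeR 4.0.16 (R 4.3.3; filterByExpr, TMM, one term per condition, quasi-likelihood test, Benjamini-Hochberg adjustment over 13868 genes, threshold 0.05). Log2-CPM used a prior count of 2. DESeq2 1.42.0 served for alternatives (its size factors, its test, and its test with transcript length offsets), beside other count filters, offsets for gene length or GC content, the replicate letter as a block, fits of the compared conditions only and fits without 1 library, and Python 3.11.15, pandas 2.3.3, numpy 2.4.6 and matplotlib 3.10.9 for summaries. The fit was tested on simulated counts with known changes. Depth was 14962245 to 25339094 counts per library, and a gene with 0 counts could still have an expected count of up to 3. Chi-square per gene between replicates was at least 2.20, so all were counted separately.

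Values of all 9 members were given for FOXL2C134W against FOXL2WT and against Vectors, and of some members for the other comparisons. A member without values in a comparison was not called there. Of each list, the called partners with the highest and the lowest fold change were named in FOXL2C134W against FOXL2WT. The same was done for FOXL2C134W + FOXO1 against FOXL2C134W. Named too were the 5 genes nearest to HSPG2 and the transfected genes. Members and lists were chosen with earlier results of these data known, and the GC and length classes were set after the members' values were seen.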

Additional observations from a re-analysis of the deposited data

Results flagged for a closer look

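The effect of FOXO1 differed between the 2 forms of FOXL2, by the interaction term of the edgeR fit, for 5 of the genes followed here. These were 3 of the 9 members and 2 of the 47 tested partners, against 1.38% of all tested genes called. For HSPG2 the effect in FOXL2C134W minus that in FOXL2WT was -0.88 on the log2 scale (-0.48 against 0.40; adjusted p = 0.00650). For LAMA5 it was -0.68 (-0.46 against 0.21; adjusted p = 0.00957) and for NID1 -0.28 (-0.18 against 0.10; adjusted p = 0.04996). Of the partners, COL4A2 had -0.37 (adjusted p = 0.0109) and NDST1 -0.29 (adjusted p = 0.0373). With 1 library left out in turn, the values ran from -1.01 to -0.78 for HSPG2 and from -0.81 to -0.60 for LAMA5, and NID1 was called in 3 of 12 such fits. In these fits 1 to 4 of the 47 tested partners were called.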

How the results depend on the processing

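Of the log2 fold changes of the 9 members under other settings, 621 kept their direction and side of the threshold, 29 came to pass it, 21 no longer passed and 22 turned sign. With 1 library left out these numbers were 366, 5, 39 and 22. Of values that had passed the test, LAMA5 in FOXL2WT against Vectors turned sign, and the cause was not tested. With transcript length offsets in DESeq2, the values that turned sign were LAMA5 in FOXL2WT against Vectors (0.0482), LAMA4 with FOXO1 added to FOXL2C134W (0.0828) and AGRN with FOXO1 added to FOXL2WT (-0.012). With the gene length offset, the values that turned sign were LAMC1 in FOXL2C134W against FOXL2WT (-0.00701), LAMC1 with FOXO1 added to FOXL2C134W (0.049), LAMC1 with FOXO1 added to FOXL2WT (-0.000898), HSPG2 in the comparison of the conditions with FOXO1 (-0.0712), LAMB1 in the comparison of the conditions with FOXO1 (-0.0126) and LAMC1 in the interaction (0.0499). With the replicate block and the gene length offset, the values that turned sign were LAMC1 in FOXL2C134W against FOXL2WT (-0.00707), LAMC1 with FOXO1 added to FOXL2C134W (0.049), NID2 with FOXO1 added to FOXL2WT (-0.0165), LAMC1 with FOXO1 added to FOXL2WT (-0.00108), HSPG2 in the comparison of the conditions with FOXO1 (-0.0726), LAMB1 in the comparison of the conditions with FOXO1 (-0.013) and LAMC1 in the interaction (0.0501). With the GC content offset, the values that turned sign were LAMA5 in the comparison of the conditions with FOXO1 (0.0174) and LAMB2 in the comparison of the conditions with FOXO1 (0.00746). With the replicate block and the GC content offset, the values that turned sign were NID2 with FOXO1 added to FOXL2WT (-0.0114), LAMA5 in the comparison of the conditions with FOXO1 (0.0187) and LAMB2 in the comparison of the conditions with FOXO1 (0.00754). With the replicate block alone, the values that turned sign were NID2 with FOXO1 added to FOXL2WT (-0.012). The block with the GC content offset was added after seeing the data.

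With 1 library left out, some values that had not passed the test turned sign, and their ranges follow. In FOXL2C134W against Vectors these were -0.14 to 0.0401 for LAMA4, -0.00932 to 0.122 for LAMB1 and -0.0619 to 0.00693 for LAMC1. With FOXO1 added to FOXL2C134W these were -0.163 to 0.0178 for LAMA4 and -0.0489 to 0.0200 for LAMC1. With FOXO1 added to FOXL2WT these were -0.221 to 0.125 for NID2 and -0.0231 to 0.064 for LAMC1. In the comparison of the conditions with FOXO1 these were -0.113 to 0.0984 for HSPG2, -0.169 to 0.031 for LAMA5, -0.0283 to 0.0537 for LAMB1 and -0.0781 to 0.0100 for LAMB2. In the interaction these were -0.0738 to 0.0196 for LAMC1.

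Of 9 members, the 6 called in FOXL2C134W against FOXL2WT became 3 with transcript length offsets and 3 to 7 with 1 library left out (3 without FOXL2C134W replicate C). In FOXL2C134W against Vectors the 2 became 0 with transcript length offsets, 4 with block and length offset and 0 to 2 with 1 library left out, and in FOXL2WT against Vectors the 5 became 3 to 4. After FOXO1 in FOXL2C134W the 2 became 4 with DESeq2 or a filter of 1 count in any library, 0 in a fit of the compared conditions only, 1 with the GC offset (with or without the block) and 0 to 3 with 1 library left out. After FOXO1 in FOXL2WT the 0 became 2 with the filter of 1 count and 1 in the fit of the compared conditions. The 3 of the interaction became 2 to 3 with 1 library left out.

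Of 47 partners, the 7 called in FOXL2C134W against FOXL2WT became 6 to 12 with 1 library left out, the 13 against Vectors 4 with transcript length offsets and 7 to 14, and the 12 in FOXL2WT against Vectors 5 to 12. After FOXO1 in FOXL2C134W the 2 became 4 with DESeq2 or the filter of 1 count, 0 in the fit of the compared conditions, 1 with the block or with block and length offset, 0 with the GC offset (with or without the block) and 0 to 4 with 1 library left out. Between the conditions with FOXO1 the 0 became 1 with the filter of 1 count. The 2 of the interaction became 4 with DESeq2, DESeq2 size factors or either count filter (1 in any or 10 in every library), 1 in the fit of the compared conditions or with the GC offset (with or without the block), and 1 to 4 with 1 library left out.

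Libraries with the same letter did not deviate together over all tested genes (correlations from -0.16 to 0.12). The labels do not say whether a letter marks a shared culture or day, and these correlations do not settle it for single genes. With the replicate block, 6 members were called in FOXL2C134W against FOXL2WT and 2 in the interaction, and over all genes 1562 and 163, against 1560 and 192 without it. Depth limits NID2 most, at 64 to 164 counts per library.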
